A study of Mus musculus with 12 samples.

Results

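Genic H3K27me3 regions without H3K4me3 are stretches of the genome where the Polycomb mark lies in or beside a protein-coding gene with no listed peak of the promoter mark H3K4me3. They were read from peak lists of chromatin immunoprecipitation with sequencing. To find them, peaks of both WT H3K27me3 lists on chromosomes 1 to 19 were merged where they overlapped or touched. An interval was kept where both WT mice had a peak in it, where it was shorter than 10000 bp and met no H3K4me3 peak of either WT list, and where it lay inside or within 10000 bp of a gene. The merging gave 12041 intervals, of which 7286 were touched by both WT mice, 6823 of these were shorter than 10000 bp and 3595 also had no H3K4me3. The last condition left 2741 regions, 37.6% of the 7286. WT peaks thus chose the regions, so WT values below are a description, and only values of the KO mice, of mice left out of the choice and of sequence are independent of it.

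The cells were lineage-negative, cKit+ bone marrow cells of C57BL/6 mice, a fraction rich in blood stem and progenitor cells. The KO mice, KO_399 and KO_401, were Mx1Cre+ with Ints11 flox/fox, as the labels spell it, and the WT mice, WT_407 and WT_409, were littermates. Both genotypes had an injection of poly(I:C) 4 days before the sort. The series gives 2 mice per genotype, and the numbers in the labels were read as these mice. The WT littermates' own Cre status is not given. Mx1Cre is switched on by the interferon response, which poly(I:C) sets off, and it also acts outside the blood, for instance in liver and marrow stroma. These peak lists do not show what share of cells had lost Ints11. Ints11 is the catalytic subunit of Integrator, a complex that cleaves RNA made by RNA polymerase II, among them the small nuclear RNAs. The question the series poses is what its deletion does to both histone marks in these cells.

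Polycomb repressive complex 2 places the methyl groups on lysine 27 of histone H3, and Polycomb repressive complex 1 binds the mark and compacts chromatin. In mammals the mark collects at CpG-rich promoters of genes that a cell lineage keeps silent, such as genes of the nervous system in blood. Many such promoters carry H3K4me3 as well and are called bivalent.

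The lists do not give library depth, and the background below is only an indirect guide to it. The background that peak calling assumed, recovered from the authors' fold and p-value at each summit, was 3.30 and 3.67 reads per position for H3K27me3 in KO_399 and KO_401, and 3.09 and 3.15 in WT_407 and WT_409. Every list held only peaks of at least fold 5, which took 20.5 and 22.4 reads at the summit in the KO mice and 19.5 and 19.8 in the WT mice. A region without a listed peak may therefore have held signal below that height. The numbers of H3K27me3 peaks were 6542 and 7653 in the KO mice and 11930 and 9838 in the WT mice. H3K4me3 peaks lay at 10 and 10 of 12 progenitor genes in the KO mice and at 10 and 11 in the WT mice, and at 8 of 8 granulocyte and monocyte genes in every mouse. These lists therefore do not set progenitors apart from myeloid cells. WT_409 stood apart, with a peak at 7 of 7 erythroid genes against 2 in KO_399, 1 in KO_401 and 2 in WT_407, and its summed peak length there was 6389 bp against 1296 to 2336 bp in the other mice. At 8 B cell genes the numbers were 5 and 3 in the KO mice and 3 and 6 in the WT mice. At 8 T and NK cell genes they were 4 and 4 in the KO mice and 3 and 3 in the WT mice. At 8 stromal and endothelial genes they were 6 and 5 in the KO mice and 4 and 3 in the WT mice. The part of these cell types in the results was not tested, and values without WT_409 are given with the results it moves.

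The promoters below show what the regions look like at sequence level. Each is the RefSeq window of GRCm38.p6, whose coordinates are those of mm10, from 250 bases before to 50 bases after the annotated start, and each lies at least in part under a region. The capitals mark CG dinucleotides, the sites where mammalian DNA is methylated, because CpG content is the sequence feature compared between outcomes in the KO mice below. The first 3 belonged to regions with no H3K27me3 peak in either KO mouse, the next 3 to regions that both KO mice held, and the last 2 to regions where both KO mice had an H3K4me3 peak. Among the regions of each set that overlap such a RefSeq window, they stood highest in the WT lists or, for the last set, had the longest H3K4me3 cover. Their positions are chr7:4532416-4532715 on the minus strand for Dnaaf3, chr4:59915007-59915306 on the minus strand for Slc46a2, chr3:121532295-121532594 on the minus strand for Slc44a3, chr3:103574995-103575294 on the plus strand for Syt6, chr15:99087679-99087978 on the minus strand for C1ql4, chr11:59290702-59291001 on the minus strand for Wnt3a, chr2:80447347-80447646 on the minus strand for Frzb and chr1:75507359-75507658 on the plus strand for Inha.
Dnaaf3: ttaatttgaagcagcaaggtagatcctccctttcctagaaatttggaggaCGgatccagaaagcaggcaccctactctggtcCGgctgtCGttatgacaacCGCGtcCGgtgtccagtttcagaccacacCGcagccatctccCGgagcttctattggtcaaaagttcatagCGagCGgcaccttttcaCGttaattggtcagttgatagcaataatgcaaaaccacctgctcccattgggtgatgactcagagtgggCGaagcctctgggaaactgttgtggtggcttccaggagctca
Slc46a2: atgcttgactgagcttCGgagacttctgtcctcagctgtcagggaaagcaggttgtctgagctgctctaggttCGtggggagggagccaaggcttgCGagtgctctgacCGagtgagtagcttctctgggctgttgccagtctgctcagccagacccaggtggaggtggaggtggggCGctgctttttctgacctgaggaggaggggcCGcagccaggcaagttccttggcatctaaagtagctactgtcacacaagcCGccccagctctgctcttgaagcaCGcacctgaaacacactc
Slc44a3: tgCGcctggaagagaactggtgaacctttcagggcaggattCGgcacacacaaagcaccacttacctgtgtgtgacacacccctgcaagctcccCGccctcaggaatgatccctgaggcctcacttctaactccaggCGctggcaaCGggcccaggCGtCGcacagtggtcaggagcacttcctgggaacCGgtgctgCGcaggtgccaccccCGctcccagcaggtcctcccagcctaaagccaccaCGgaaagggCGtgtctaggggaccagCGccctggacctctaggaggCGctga
Syt6: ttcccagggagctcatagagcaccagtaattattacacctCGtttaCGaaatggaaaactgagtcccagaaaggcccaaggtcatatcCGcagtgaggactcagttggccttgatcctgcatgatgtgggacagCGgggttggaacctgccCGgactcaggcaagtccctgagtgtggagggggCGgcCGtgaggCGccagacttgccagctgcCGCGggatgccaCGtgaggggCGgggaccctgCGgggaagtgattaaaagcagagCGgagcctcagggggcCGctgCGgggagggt
C1ql4: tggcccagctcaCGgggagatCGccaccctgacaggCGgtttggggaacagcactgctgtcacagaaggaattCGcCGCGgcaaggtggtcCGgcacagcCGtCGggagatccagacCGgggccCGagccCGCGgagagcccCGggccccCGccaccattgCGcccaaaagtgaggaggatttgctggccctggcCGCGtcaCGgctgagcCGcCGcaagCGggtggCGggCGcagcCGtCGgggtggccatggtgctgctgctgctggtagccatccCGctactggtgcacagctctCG
Wnt3a: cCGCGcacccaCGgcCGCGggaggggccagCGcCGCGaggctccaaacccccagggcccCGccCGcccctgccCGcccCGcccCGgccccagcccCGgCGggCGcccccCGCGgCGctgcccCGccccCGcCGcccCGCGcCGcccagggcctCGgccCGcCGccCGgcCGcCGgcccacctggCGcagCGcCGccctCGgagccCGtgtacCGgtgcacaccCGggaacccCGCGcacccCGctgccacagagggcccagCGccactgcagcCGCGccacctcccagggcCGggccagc
Frzb: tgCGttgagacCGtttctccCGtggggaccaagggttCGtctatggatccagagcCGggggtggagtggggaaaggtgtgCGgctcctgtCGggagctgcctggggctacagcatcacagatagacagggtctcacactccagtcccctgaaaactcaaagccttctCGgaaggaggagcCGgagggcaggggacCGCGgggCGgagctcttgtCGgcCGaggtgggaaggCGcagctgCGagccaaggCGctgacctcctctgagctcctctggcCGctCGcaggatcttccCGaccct
Inha: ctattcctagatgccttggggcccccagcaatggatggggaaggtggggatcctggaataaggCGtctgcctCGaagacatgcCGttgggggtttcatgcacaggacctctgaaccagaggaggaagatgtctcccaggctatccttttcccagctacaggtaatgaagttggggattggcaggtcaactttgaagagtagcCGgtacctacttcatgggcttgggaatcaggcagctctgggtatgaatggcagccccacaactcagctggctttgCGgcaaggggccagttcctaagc
CG occurs 12 times in the Dnaaf3 window, 8 times in Slc46a2 and 14 times in Slc44a3. It occurs 16 times in Syt6, 28 times in C1ql4 and 45 times in Wnt3a, whose window is 86.3% G and C. Frzb has 20 and Inha 5.

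In the KO mice much of this H3K27me3 was no longer listed. KO_399 had a peak in 1369 of the 2741 regions (49.9%) and KO_401 in 1898 (69.2%), where the rule fixed both WT mice at all of them. Neither KO mouse had a peak in 798 regions (29.1%, exact 95% interval 27.4% to 30.9%, which covers counting error only), against 20.1% of all 7286 regions of both WT mice. Both KO mice had one in 1324 regions (48.3%), against 60.1% of all. Of the other 619 regions, 45 had a peak in KO_399 alone and 574 in KO_401 alone. The mice of 1 genotype thus differed too, and most of these regions had their peak in KO_401. Without KO_401 the share absent was 50.1%, and with regions chosen without WT_409 it was 56.1%. Both lie above the value over all 4 mice, and without KO_399 it was 30.8%. Leaving out a KO mouse can only raise this share, since a peak is then looked for in 1 KO list. The share held by both KO mice was 26.4% without WT_409.

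Measured in bases, the H3K27me3 peaks covered on average 1177 bp of a region in KO_399 and 1953 bp in KO_401, against 3223 bp in WT_407 and 2871 bp in WT_409. The means per genotype were 1565 ± 549 bp in KO and 3047 ± 249 bp in WT (SD, n = 2 each), so KO cover was 51.4% of WT cover. The total over all regions was 3.23 and 5.35 Mb in the KO mice and 8.83 and 7.87 Mb in the WT mice. In 2361 regions (86.1%) both KO mice had less cover than both WT mice, against 84.4% of all regions of both WT mice, and in 0 regions did both have more. The share for these regions is close to that for all, so shorter cover was common to H3K27me3 regions at large. In the 1324 regions that both KO mice held, the median summit had 30 reads in KO_399 and 42 in KO_401, against 49 in WT_407 and 47 in WT_409, so KO summits were lower there as well. In a sorted bulk sample, less mark per cell and fewer cells with the mark cannot be told apart.

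**Figure D1:**
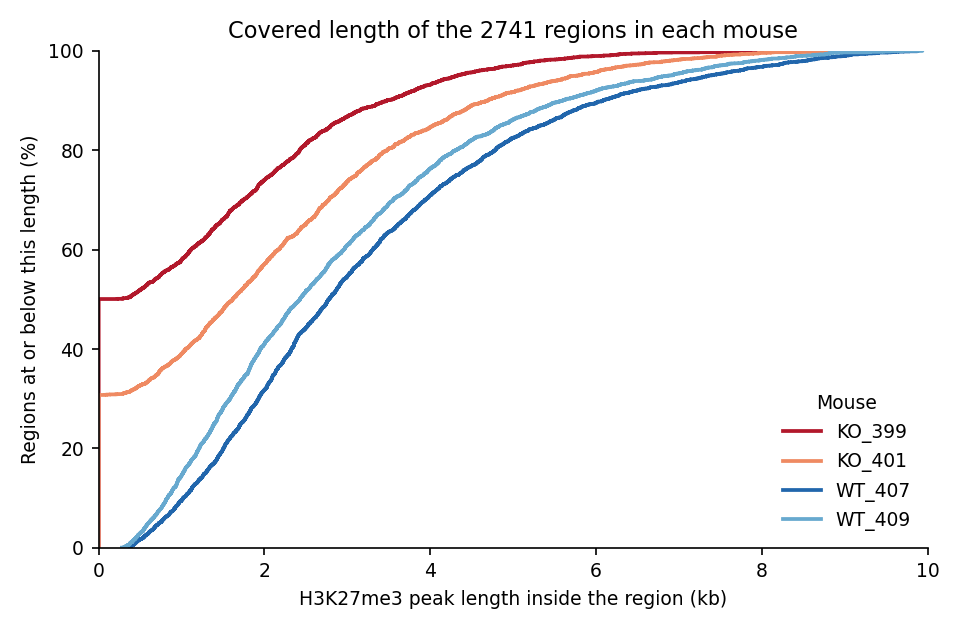
Length of H3K27me3 peaks inside each of the 2741 regions, as the share of regions (y axis, percent) at or below a given length (x axis, kb), with 1 line per mouse. The lines of KO_399 and KO_401 start at the share of regions with no peak and lie above those of both WT mice over nearly the whole range, with medians of 0 and 1616 bp in the KO mice against 2779 and 2428 bp in the WT mice.

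The 1324 regions that both KO mice held were also narrower there. Their median cover was 2130.5 bp in KO_399 and 3118.5 bp in KO_401, against 4181 bp in WT_407 and 3831 bp in WT_409. The mean in KO_399 was 55.8% of the WT mean and that in KO_401 79.5%. Cover broke into more than 1 peak in 22.4% of them in KO_399 and 17.2% in KO_401, against 12.8% in WT_407 and 12.6% in WT_409. KO_399 thus departed further from WT than KO_401 in number, length and continuity.

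The outcome was ordered by length in WT. Regions absent from both KO mice had a median length of 1768.5 bp, those held by 1 KO mouse 2438 bp and those held by both 4377 bp. Of regions under 1000 bp, 86.2% were absent from both KO mice, and of those of 1000 to 2000 bp 63.1%. From there the share was 32.8% at 2000 to 3000 bp, 9.61% at 3000 to 5000 bp and 2.03% at 5000 to 10000 bp. Peak height in WT gave the same order. Each region was ranked by the lower of its percentiles of −log10 q within both WT lists. Below percentile 25 were 556 regions with 80.8% absent, from 25 to 50 there were 895 with 37.1%, from 50 to 75 there were 885 with 1.92%, and above 75 there were 405 with 0%. Length and height were read from the WT lists that chose the regions, and the part of the fixed fold at which every list ended was not tested.

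Set beside the other H3K27me3 regions of both WT mice, these regions lay between the kinds with and without genes or H3K4me3. The share absent from both KO mice was 29.1% here, against 9.67% of 3228 short regions with H3K4me3, 41.9% of 854 intergenic regions without H3K4me3 and 0% of 463 regions of 10000 bp or more. The order held within each length bin from 1000 bp up. At 2000 to 3000 bp, for instance, it was 32.8% of 643 regions here, 13.2% of 576 with H3K4me3 and 47.6% of 231 intergenic ones. At 3000 to 5000 bp it was 9.61%, 2.35% and 14.2% in the same order of kinds. By WT rank the contrast with H3K4me3-bearing regions was smaller: from percentile 25 to 50 it was 37.1% here against 32.2% there, and from 50 to 75 it was 1.92% against 1.67%. Below percentile 25 it was 80.8% against 64.0%. The contrast with intergenic regions was also small by WT rank. Of intergenic regions, 83.7% were absent below percentile 25, 40.4% from 25 to 50 and 5.12% from 50 to 75. Regions of 1 mouse are not independent replicates, so no test was made between kinds. The difference from regions with H3K4me3, 19.4 percentage points, was 5.88 when each list was held to the same number of peaks, 8.91 at a fold of at least 8 and 43.1 without WT_409. The difference from intergenic regions, -12.8 percentage points, was -20.1 for regions inside a gene span and -22.6 at a fold of at least 8.

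**Figure D2:**
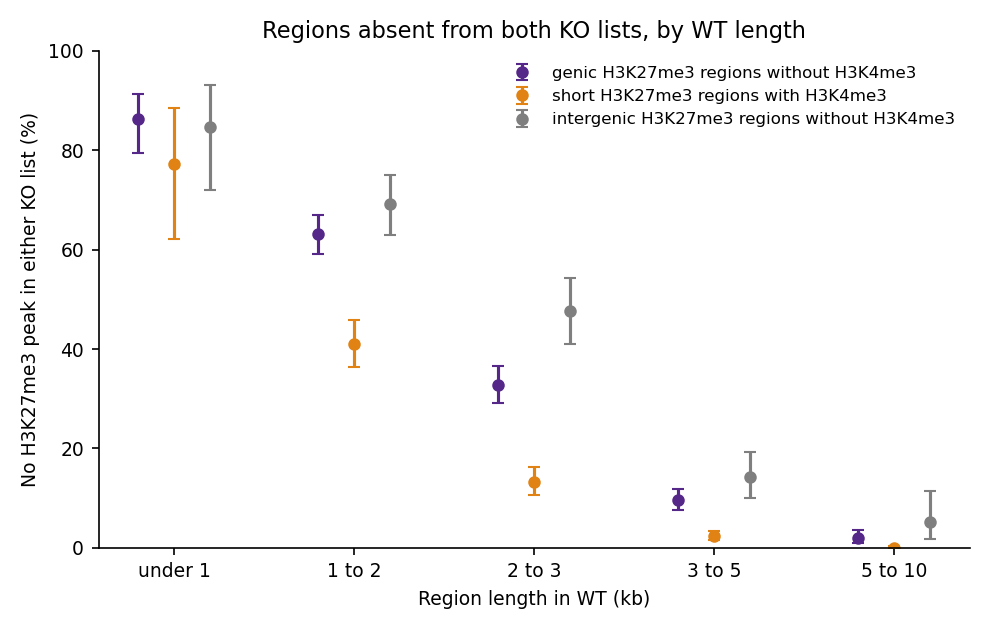
Share of regions with no H3K27me3 peak in either KO mouse (y axis, percent) by region length in WT (x axis, kb), for 3 kinds of region, with exact 95% intervals that cover counting error only. In each kind the share is lower in longer regions, and from 1 to 2 kb upward the genic regions without H3K4me3 lie between those with H3K4me3 and the intergenic ones.

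Choosing regions on WT lists favours WT by construction, so the same rule was run on 1 mouse at a time and read in the mice it had not used. Of 5834 regions chosen on WT_407 alone, 27.6% were found again in KO_399 and 42.6% in KO_401, against 63.0% in WT_409. Of 4555 chosen on WT_409 alone, 40.2% were found in KO_399 and 58.2% in KO_401, against 85.4% in WT_407. In both cases the left-out WT mouse held more of the regions than either KO mouse. Averaged over both choices, the left-out WT mouse was 32.0 percentage points above the mean of the KO mice. The reverse choice gave no such gap. Of 2881 regions chosen on KO_399, 95.3% were found in KO_401, against 99.4% in WT_407 and 98.9% in WT_409, and of 3631 chosen on KO_401, 61.4% were found in KO_399, against 96.5% and 94.8% in the WT mice. Of 1632 regions that met the rule in both KO mice, 0 were absent from both WT mice and 1626 (99.6%) lay in both.

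When regions were built from the peaks of all 4 mice alike, a choice added after the data had been seen, 5256 regions resulted. KO_399 held 1198 and KO_401 1813 of them, against 4570 in WT_407 and 3087 in WT_409. The means were 1506 ± 435 in KO and 3829 ± 1049 in WT (SD, n = 2 each), with no overlap between genotypes and a two-sided exact permutation p of 0.33, the smallest that 2 against 2 mice allow. Such a p measures only the spread between these samples. Both WT mice and neither KO mouse held 779 regions, both KO and neither WT mouse 0, and all 4 mice 1128.

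How many regions were absent depended on how the lists were set against each other. With the 6505 highest peaks of each list, 10.2% of 1746 regions were absent from both KO mice. With the lists held to the same covered length, 15.1 Mb, 300 regions met the rule, of which 0% were absent and 97.7% lay in both KO mice. By construction, the regions left under that setting were those with the strongest WT peaks. Mean cover per region was lower in KO under both settings, with KO minus WT differences of -1497 and -1603 bp. The regions were still chosen on WT peaks there, which favours WT cover by construction, so these differences are a description.

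Among regions with no H3K27me3 peak in either KO mouse, the 10 that stood highest in WT lay at genes of many tissues. Pairs of values stand for KO_399 and KO_401 and for WT_407 and WT_409. The highest, inside Gm50595 (chr2:75607583-75612371), had 0 bp in both KO mice, against 3645 bp in WT_407 and 4789 bp in WT_409, with 44 and 63 reads at the WT summits. Dnaaf3, needed to build the dynein arms of motile cilia, had 0 bp in both KO mice, against 2840 and 3135 bp in the WT mice (chr7:4531318-4534452, over its start). The WT summits there had 33 and 41 reads. Nnmt, which methylates nicotinamide, had 0 bp in both KO mice, against 1958 and 2149 bp in the WT mice at one end of the gene. Egflam encodes pikachurin, a matrix protein of the photoreceptor synapse. Its intragenic region was the longest of the 10, with 0 bp in both KO mice, against 8990 and 9577 bp in the WT mice (chr15:7228721-7238562). The region beside Cd40, the costimulatory receptor of B cells, lay 4101 bp outside the gene and had 0 bp in both KO mice, against 5995 and 5574 bp in the WT mice. The other 5 were at Gipr, a receptor for an incretin hormone, Pou4f3, a transcription factor of inner ear hair cells, Arhgap22, a GTPase-activating protein of Rac, Zmynd15, a repressor needed in mouse sperm formation, and Taok1, a protein kinase. Their WT cover was between 1514 and 2962 bp, and only at Taok1 did both KO mice have an H3K4me3 peak, of 881 and 207 bp.

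The 10 highest regions that both KO mice held lay at genes of varied function, among them proteins of nerve cells and a Polycomb subunit. Syt6, a synaptotagmin of vesicle traffic, had 6094 and 7439 bp in the KO mice, against 8867 and 7897 bp in the WT mice (chr3:103571101-103579967, over its start). Wnt3a, a Wnt ligand that acts in stem cells, had 4965 and 7515 bp in the KO mice, against 8664 and 7633 bp in the WT mice (chr11:59286444-59295107). C1ql4, a secreted C1q-like protein, had 2517 and 4385 bp in the KO mice, against 5834 and 5805 bp in the WT mice (chr15:99084189-99090079). In these 3 every KO value was below every WT value. Kif1a, a kinesin that carries synaptic vesicle precursors along axons, did not separate the genotypes: 5116 and 5747 bp in the KO mice, against 5313 and 6411 bp in the WT mice. Srrm3, a splicing regulator of neurons, kept nearly its whole cover, with 4036 and 4204 bp in the KO mice and 4240 and 4216 bp in the WT mice. Cbx8, a chromodomain subunit of Polycomb repressive complex 1, had 4066 and 4564 bp in the KO mice, against 4548 and 4953 bp in the WT mice, over the 3′ end of the gene. The other 4 were at Nrxn2, a neurexin of the presynaptic membrane, Trim71, an RNA-binding ubiquitin ligase of early development, Btbd17 and 9830107B12Rik. At the summits of all 10, the KO mice had 41 to 48 reads in KO_399 and 58 to 73 in KO_401, against 69 to 91 in WT_407 and 82 to 106 in WT_409.

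Position in the gene went with the outcome. A region covered either end of a gene span in 1174 cases, lay inside a gene without reaching an end in 1031 and lay outside, within 10000 bp, in 536. The share absent from both KO mice was 10.2% at gene ends, 40.5% inside and 48.5% outside, and the share held by both was 75.1%, 32.4% and 20.1%. Regions at gene ends were longer, with a median of 3952.5 bp, against 2501 bp inside and 2239 bp outside. The difference was nevertheless present at matched length. At 2000 to 3000 bp, 16.3% of 239 regions at gene ends were absent from both KO mice, against 42.6% of 404 other regions. At 3000 to 5000 bp it was 2.73% of 440 against 17.5% of 382, and at 5000 to 10000 bp 0.556% of 360 against 4.97% of 181. Their WT summits were also higher, with median folds of 11.0 and 10.6 at gene ends against 7.33 and 6.74 inside genes in WT_407 and WT_409, and the part of height in the difference was not tested. Where the start itself could be told, from genes in the promoter table, 904 regions covered a start with 9.40% absent, and 1072 did not, with 43.9% absent.

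**Figure D3:**
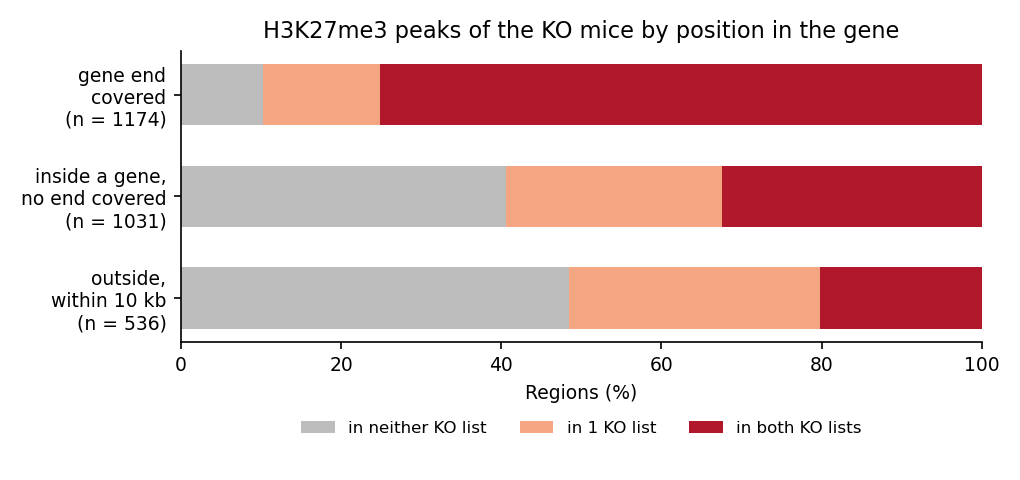
Share of regions (x axis, percent) with an H3K27me3 peak in neither, in 1 or in both KO mice, for regions that cover an end of a gene span, lie inside a gene or lie outside within 10 kb. Regions at gene ends were in both KO lists in 75.1% of cases, those inside genes in 32.4% and those outside in 20.1%.

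H3K4me3 at the starts of the genes differed with position, in part by the rule, which leaves out any region that meets a WT H3K4me3 peak. Among 874 genes whose start lay under a region, 5.61% had an H3K4me3 peak within 1000 bp of the start in both WT mice, which can lie beside the region or at another start of the gene. Among 629 genes whose regions covered no start it was 58.2%, close to the 59.7% of all 16457 genes with a start in the table. Genes whose regions lay inside or beside them thus had a marked start about as often as genes at large. The nearest WT H3K4me3 peak lay at a median of 26481 bp (quartiles 7885 and 85331 bp), and 103 regions (3.76%) had one within 1000 bp. Regions with another H3K27me3 region of both WT mice within 5000 bp were absent from both KO mice in 418 of 1012 cases, against 380 of the 1729 others. Their median lengths were 2545.5 and 3209 bp.

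In all, 2056 of 20665 protein-coding genes had a region named for them, which is 9.95%, and 141 of these genes had 3 or more. Ion channels and transmitter receptors held far more than that share. Over 6 lists of such genes it was 116 of 225 (51.6%). Glutamate receptors had a region in 18 of 26 genes, receptors for serotonin, dopamine and adrenaline in 18 of 27, potassium channels in 46 of 91 and sodium and calcium channels in 20 of 39. For receptors of GABA and glycine it was 8 of 21, and for nicotinic and muscarinic receptors 6 of 21. These genes are long, with a median span of 46.7 kb against 17.5 kb over all genes, and long genes hold more regions. Among genes under 10 kb, 44.4% of the listed ones had a region against 5.43% of all, and among those of 100 kb or more 66.7% against 24.0%. The lists were chosen with results of these data known, so the counts describe them and are no test.

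The 155 regions at these channel and receptor genes were absent from both KO mice in 38 cases (24.5%) and held by both in 87 (56.1%), against 29.1% and 48.3% over all the regions. All 6 regions of the nicotinic and muscarinic list covered a start and were held by both KO mice. Chrna4, a nicotinic receptor subunit of brain, had 3818 and 4715 bp in the KO mice, against 7815 and 4672 bp in the WT mice. Grin1, the obligatory subunit of NMDA glutamate receptors, had 4077 and 4741 bp in the KO mice, against 5299 and 5510 bp in the WT mice. Drd4, a dopamine receptor, had 5375 and 5957 bp in the KO mice, against 6158 and 6780 bp in the WT mice. KO values were below both WT values at Grin1 and Drd4, and at Chrna4 KO_401 was above WT_409. At Gabrg3, a subunit of the GABA receptor with a shorter region, the values were 0 and 590 bp in the KO mice, against 1217 and 1056 bp in the WT mice. Kcnc1, a fast potassium channel of interneurons, had 4146 and 5264 bp in the KO mice, against 6422 and 6072 bp in the WT mice.

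**Figure D4:**
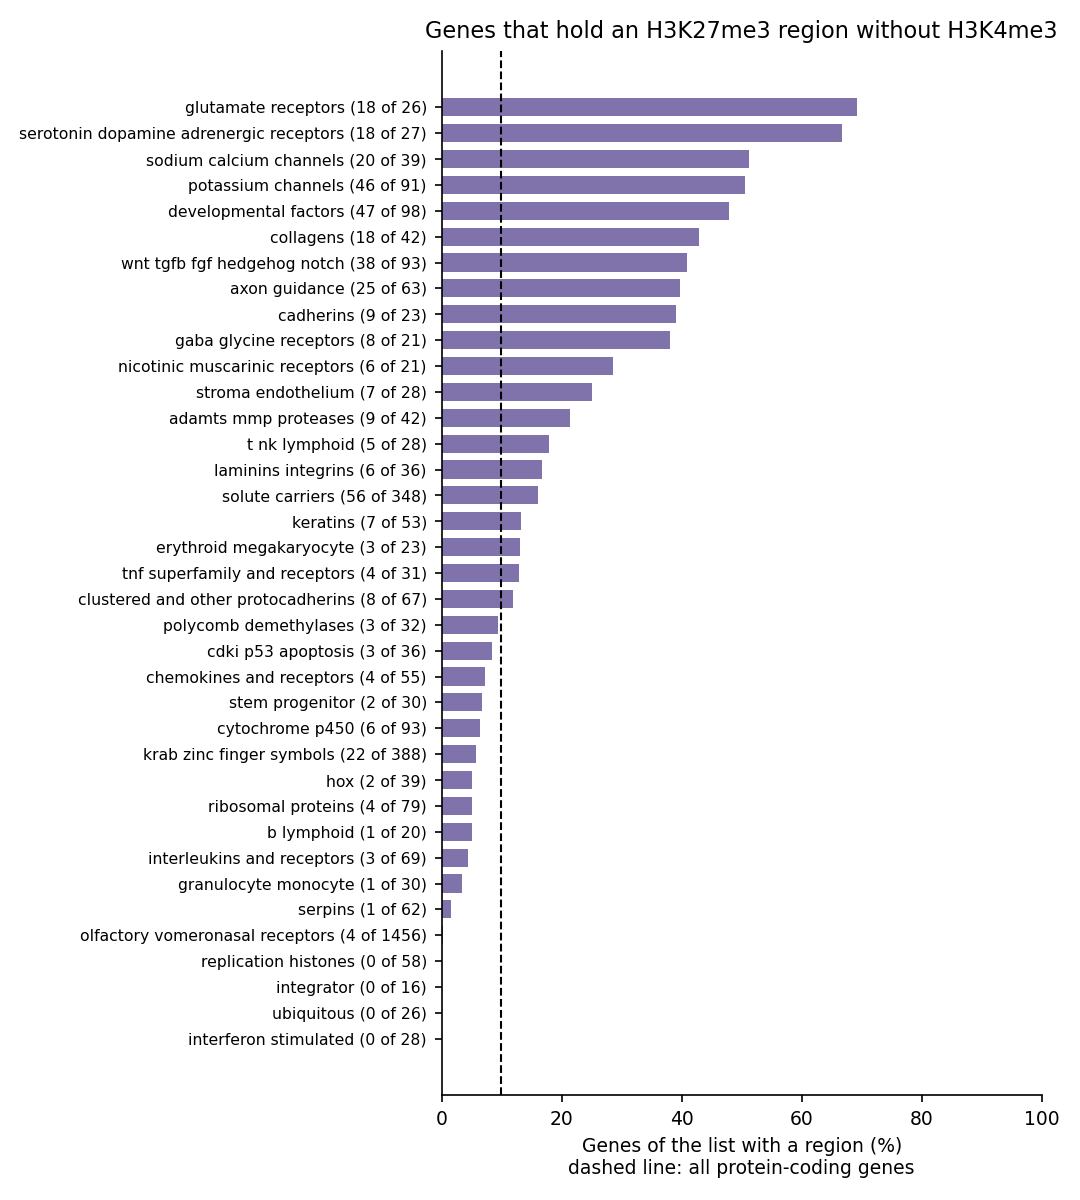
Share of genes in each list that hold a genic H3K27me3 region without H3K4me3 (x axis, percent; the number of genes stands beside the name), with a dashed line at the 9.95% of all protein-coding genes. Receptors and channels of nerve cells and developmental genes stand at the top, and the interferon, ubiquitous, Integrator and replication histone lists hold 0.

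Developmental and signalling genes were the other large group. Transcription factors of development held a region in 47 of 98 genes, with 73 regions. Of these regions, 27 (37.0%) were absent from both KO mice and 30 (41.1%) held by both, against 29.1% and 48.3% over all the regions. Of all 98 genes, 75 had an H3K27me3 region of 10000 bp or more, and 5 of the 73 regions covered a start. How many of the 47 genes had both kinds of region was not counted, and the distance between the kinds was not measured. Pax8, a factor of thyroid and kidney, had 6182 and 6474 bp in the KO mice, against 7882 and 7395 bp in the WT mice. Ligands, receptors and inhibitors of the Wnt, Tgfb, Fgf, Hedgehog and Notch pathways had a region in 38 of 93 genes. Short H3K27me3 regions with H3K4me3 lay at more of them, 53 of 93, so H3K27me3 at these genes is not particular to regions without H3K4me3. Over all genes such short regions lay at 2757 of 20665. Of the 50 regions without H3K4me3 at the pathway genes, 8 (16%) were absent from both KO mice and 33 (66%) held by both. Ihh, a Hedgehog ligand of cartilage, had 6910 and 8104 bp in the KO mice, against 9512 and 8401 bp in the WT mice. Fgfr4, a receptor of fibroblast growth factors, had 3140 and 4855 bp in the KO mice, against 5588 and 5151 bp in the WT mice. In all of Pax8, Ihh and Fgfr4 both KO values were below both WT values. Among gene families of structure and guidance a region lay in 18 of 42 collagens, 25 of 63 axon guidance genes and 9 of 23 cadherins, but in 6 of 36 laminins and integrins, 7 of 53 keratins and 8 of 67 protocadherins, the last at 11.9% and near the share of all genes. It lay in 56 of 348 solute carriers and 4 of 1456 olfactory and vomeronasal receptors. Among collagens 4 of 24 regions (16.7%) were absent from both KO mice and 12 (50%) held by both. Short H3K27me3 regions with H3K4me3 lay at 36 of the axon guidance genes and 15 of the laminins and integrins, more than the regions here. They lay at fewer of the collagens, 11, and of the cadherins, 4.

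The lists of blood lineage genes lay on both sides of the 9.95% of all genes. The share with a region was 17.9% for T and NK cells, 13.0% for the erythroid and megakaryocyte list, 6.67% for stem and progenitor cells, 5% for B cells and 3.33% for granulocytes and monocytes. The stem and progenitor list had a region in 2 of 30 genes, both inside the gene and both absent from the KO mice. At Mecom, a zinc finger factor of stem cells, the region had 0 bp in both KO mice, against 580 and 655 bp in the WT mice (chr3:30013959-30014613). At Prdm16, a related factor, it had 0 bp in both KO mice, against 1020 and 991 bp in the WT mice (chr4:154463988-154465164). Both had 21 reads at the WT_409 summit, just above what a listed peak needed. Of the erythroid and megakaryocyte list, 3 of 23 genes had a region, with 7 regions in all. They include neighbouring pieces of 1 stretch outside Slc4a1 (chr11:102371686-102373355, chr11:102373457-102374704 and chr11:102374795-102378501), so they are not independent. Of the 7 regions, 4 (57.1%) were absent from both KO mice and 2 (28.6%) held by both, against 29.1% and 48.3% over all the regions. So few linked regions do not set this list apart. The highest lay at Ank1, the ankyrin of the red cell membrane skeleton, with 1672 and 2945 bp in the KO mice, against 3875 and 3049 bp in the WT mice, and both KO mice had an H3K4me3 peak there, of 553 and 426 bp. Of the T and NK cell list it was 5 of 28 genes. The Bcl11b region, at a factor of T cell commitment, had 5395 and 6084 bp in the KO mice, against 7420 and 6575 bp in the WT mice. Tbx21, the T-bet factor, had 1907 and 2731 bp in the KO mice, against 4649 and 4471 bp in the WT mice. The region upstream of Eomes, its relative in NK cells, had 0 bp in both KO mice, against 2523 and 2285 bp in the WT mice. The B cell list had 1 of 20 genes, the granulocyte and monocyte list 1 of 30 and the stromal and endothelial list 7 of 28. Interferon-stimulated genes, of interest after poly(I:C), had 0 of 28, and Integrator subunits 0 of 16.

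Polycomb genes and H3K27 demethylases themselves had a region in 3 of 32 genes, Cbx8 (above), Cbx7 and Ezh1. That is 9.4%, near the 9.95% of all protein-coding genes. Cbx7, another chromodomain subunit of Polycomb repressive complex 1, had 728 and 1110 bp in the KO mice, against 2412 and 1480 bp in the WT mice. The region 3659 bp from Ezh1, the methyltransferase of resting cells, had 0 bp in both KO mice, against 1314 and 1594 bp in the WT mice. Of cell cycle inhibitors, p53 targets and apoptosis genes 3 of 36 (8.33%) had a region, also near the share of all genes, at Bbc3, Aen and Tnfrsf10b. The one upstream of Bbc3, which encodes the death protein PUMA, had 1714 and 2824 bp in the KO mice, against 3542 and 3630 bp in the WT mice.

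Some genes carried a chain of regions. Arhgap26, a GTPase-activating protein, had 10, of which 1 had a peak in KO_399 and 3 in KO_401, and their summed cover was 2023 and 7029 bp in the KO mice, against 22464 and 29933 bp in the WT mice. Cdh22, a cadherin of brain, had 9, of which 5 had a peak in KO_399 and 7 in KO_401, with 14057 and 23901 bp in the KO mice, against 37602 and 28595 bp in the WT mice. Within Cdh22 the longest region, of 8341 bp, (chr2:165209226-165217566) kept 7509 and 7596 bp in the KO mice, against 8205 and 7763 bp in the WT mice. The shortest, of 900 bp (chr2:165135914-165136813), had 0 bp in both KO mice, against 740 and 900 bp in the WT mice. Between these the order by length did not hold: the 5282 bp region had 0 and 1865 bp in the KO mice, against 5282 and 2364 bp in the WT mice, while the 3274 bp region had 797 and 2216 bp in the KO mice, against 3274 and 1981 bp in the WT mice. Speg, a kinase of striated muscle, had 6 regions, with 11336 and 13613 bp in the KO mice, against 22703 and 20409 bp in the WT mice. At Kif1c, a kinesin, 6 regions had 0 and 462 bp in the KO mice, against 9910 and 7047 bp in the WT mice. Regions of 1 gene share their locus and were not counted as replicates.

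H3K4me3 appeared at few of the regions in both KO mice, a share near that of all H3K27me3 regions without it in WT. Both KO mice had an H3K4me3 peak in 43 regions (1.57%), against 1.33% of all 3766 H3K27me3 regions of both WT mice that had no WT H3K4me3. KO_399 had one in 237 (8.65%) and KO_401 in 51 (1.86%), so the KO mice differed widely from each other. Since the rule fixed WT at 0, regions chosen on 1 WT mouse show what a left-out mouse gives. Of those chosen on WT_409, 12.1% had an H3K4me3 peak in KO_399 and 4.41% in KO_401, against 7.73% in WT_407. Of those chosen on WT_407 it was 6.15% in KO_399 and 1.46% in KO_401, against 1.87% in WT_409. The left-out WT mouse lay between the KO mice both times, so the genotypes did not separate. The count in both KO mice was 237 without KO_401 and 51 without KO_399. Leaving out a KO mouse asks for a peak in 1 mouse alone, so it cannot lower this count. With regions chosen without WT_407 the count was 188, and without WT_409 it was 77. Those choices gave 4555 and 5834 regions, each screened against 1 WT H3K4me3 list.

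Of the 43 regions, 33 had H3K27me3 in both KO mice and 1 in neither, so both marks were mostly listed together, and 21 covered a start. The longest shared H3K4me3 lay at Frzb, a secreted Wnt antagonist, with 1726 and 1062 bp in the KO mice and 0 bp in both WT mice by the rule, and H3K27me3 there was 3293 and 5506 bp in the KO mice, against 6019 and 5819 bp in the WT mice (chr2:80443920-80450085). Inha, the alpha subunit of inhibin, had 1123 and 873 bp of H3K4me3 in the KO mice and 4567 and 4833 bp of H3K27me3, against 5601 and 5266 bp of H3K27me3 in the WT mice (chr1:75503375-75508975). Adra2a, an adrenergic receptor, had 2121 and 630 bp of H3K4me3 in the KO mice, and Cftr, the chloride channel of epithelia, 790 and 1096 bp. At Tlr12, a Toll-like receptor of the mouse, H3K4me3 was 1524 and 565 bp in the KO mice. Its H3K27me3 was 0 and 2163 bp there, against 2097 and 2179 bp in the WT mice. The remaining 5 of the first 10 were at Adgrb1, an adhesion receptor of brain, Arhgef28, a guanine nucleotide exchange factor, Mmp2, a gelatinase, Plekha7, of adherens junctions, and St6galnac5, a sialyltransferase.

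Promoters under the regions had fewer CpGs where the KO mice had no listed H3K27me3 peak. The promoter table holds 16457 of the 20665 genes (79.6%) and 1545 of the 2056 genes with a region (75.1%), below the 80% set as the least for such a check, so a statement on all regions is void and the values describe only promoters in the table. Observed over expected CpG had a median of 0.38 in 96 promoters of regions absent from both KO mice, 0.48 in 172 of regions held by 1 and 0.62 in 788 of regions held by both. The median number of CpGs in the window was 9, 11 and 17 in the same order of outcomes. Among regions under 3000 bp alone, the median ratio was 0.40, 0.47 and 0.58. Over all 1056 promoters of the regions it was 0.58, close to the 0.59 of all 20085 promoters in the table. It was below the 0.72 of 1944 promoters of short regions with H3K4me3 and the 0.72 of 388 promoters of regions of 10000 bp or more. Promoters with no H3K27me3 region of both WT mice had 0.54, with a wider spread. The outcomes also differed in peak height in WT. The median summit had 25 reads in WT_407 and 23 in WT_409 in regions absent from both KO mice. In regions held by both KO mice it had 49 and 47. The part of height in the CpG difference was not tested. The windows printed above did not all follow this order. Those of absent regions had ratios of 0.607 in Dnaaf3, 0.316 in Slc46a2 and 0.470 in Slc44a3. Those of regions held by both KO mice had 0.595 in Syt6, 0.764 in C1ql4 and 0.863 in Wnt3a. Dnaaf3 thus lay above Syt6.

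**Figure D5:**
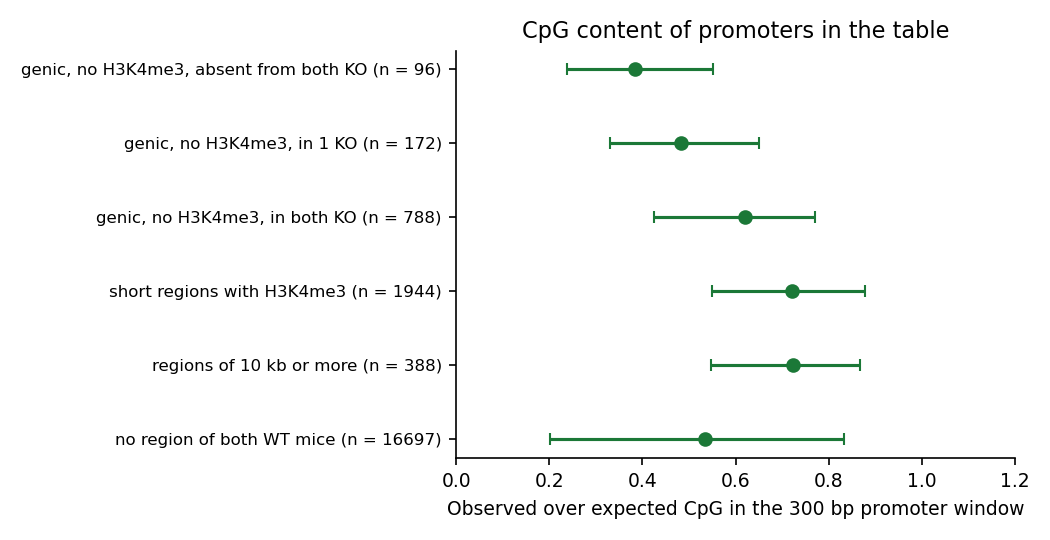
Observed over expected CpG in the 300 bp promoter window (x axis, a ratio; points are medians and bars quartiles) for promoters in the table that a region overlaps. The median is 0.38 for regions absent from both KO mice, 0.48 for those in 1 KO mouse and 0.62 for those in both.

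Other short motifs were looked for on both strands in the same windows. TATAAA was in 5.87% of promoters of the regions, against 12.7% of all promoters in the table. TGTGGT, a core of RUNX sites, was in 11.0% against 14.8%, and AGATAA, a form of the GATA site, in 5.30% against 9.57%. The median G and C content was 61.0% under the regions, against 57.0% in all promoters, and its part in these shares was not tested.

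Intervals just outside the length and distance limits were close to the regions just inside, and those at the H3K4me3 limit were not. The 36 regions of 9000 to 10000 bp had 2.78% absent from both KO mice, and the 28 intervals of 10000 to 11000 bp just outside had 0%. The 70 regions that lay 8000 to 10000 bp from a gene had 41.4% absent, and the 68 intervals 10000 to 12000 bp away 36.8%. Regions within 500 bp of a WT H3K4me3 peak, 56 in number, had 41.1% absent, while the 348 intervals that overlapped one by at most 500 bp had 20.7%, with median WT rank percentiles of 36.7 and 60.9. Both WT mice differed from each other as well: WT_407 had the longer cover in 1851 regions and WT_409 in 889, and in 57.9% both lay within 20% of each other.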

How the data were processed

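H3K27me3, H3K4me3 and input libraries, 12 in all, were made from sorted cKit+ cells of 4 mice, and the 8 peak lists of both marks were used, while the input libraries were not analysed here. The build was mm10, and the tools were MACS2, Bowtie2, deepTools, SAMtools, FastQC and Trim Galore, per the submitters' processing notes, which name no versions. Peaks were called per library, since each library has its own list. For the use of input as a control, the sources used here give nothing. Each deposited peak carries a whole-number score, a fold, which is the ratio of the summit pileup to the expected background, and −log10 values of the p-value and q-value, all as the authors gave them. The lowest deposited folds lay just above 5 and the peak numbers skip, so the lists had been filtered after calling. Folds and −log10 values were used only to rank or filter peaks within a list.

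The pileup at each H3K27me3 summit was solved from the authors' fold and −log10 p within a tolerance of 0.001, which succeeded for 100% of summits. Lists were merged and compared with Python 3.11.15, pandas 2.3.3, NumPy 2.4.6 and SciPy 1.17.1, drawn with matplotlib 3.10.9, and the merging and the recovery were tested on simulated data. An overlap of 1 bp or more with a peak counted as presence. Gene spans, promoters and chromosomes came from RefSeq tables of GRCm38.p6, and starts were known only for genes in the promoter table. A start counted as marked by H3K4me3 when a peak lay within 1000 bp. A two-sided exact permutation test over mice was run only for regions chosen from all mice alike. A region was named for the gene it lies in, or else for the nearest. Regions to name were the 10 absent from both KO lists and the 10 in both with the highest WT rank, the 10 with the longest H3K4me3 in both KO lists, the 10 genes with the most regions, and up to 5 regions per gene list by WT rank. The regions and gene lists were chosen with earlier results of these data known. Alternatives left out each mouse in turn, asked for a fold of at least 8, equal numbers of peaks, equal covered length, 25% cover, regions under 5000 bp, regions inside genes, or no H3K4me3 within 1000 bp.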

Additional observations from a re-analysis of the deposited data

How the results depend on the processing

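No paired analysis was possible because the mice of both genotypes share no number. Of the alternative values, 58 stayed within the spread between the KO mice, or within 1.5 times for counts, and 32 did not. Only differences could change sign, and 0 of those computed did. With equal covered length, only the shares absent and held and the difference in cover were computed, so differences between kinds have no value there. For the values below, the cause was not tested unless the setting itself states it. With 1 KO mouse left out, absence or presence was asked of 1 KO mouse alone. The shares absent and held and the H3K4me3 count could therefore not fall there. The share of regions absent from both KO mice, 29.1%, was 10.2% with equal numbers of peaks and 0% with equal covered length, and leaving out 1 mouse gave 30.8% to 56.1%. The share held by both KO mice, 48.3%, was 31.2% at a fold of at least 8, 72.1% with equal numbers of peaks and 97.7% with equal covered length, and 26.4% to 69.2% with 1 mouse left out. The difference in cover, -1482 bp per region, was -2457 bp at a fold of at least 8, and -1870 to -1094 bp with 1 mouse left out. The number of regions, 2741, was 1219 at a fold of at least 8 and 1746 with equal numbers of peaks, both with fewer peaks to choose from, and 4555 and 5834 when chosen on 1 WT mouse. The number with H3K4me3 in both KO mice, 43, ranged from 51 to 237 with 1 mouse left out. Against short regions with H3K4me3, the difference in the share absent, 19.4 percentage points, was 8.91 at a fold of at least 8, 14.7 inside genes and 5.88 with equal numbers of peaks, and 19.97 to 43.1 with 1 mouse left out. Against intergenic regions, -12.8 points, it was -14.4 with at least 25% cover, -22.6 at a fold of at least 8, -20.1 inside genes, -8.44 with equal numbers of peaks and -10.9 for regions under 5000 bp, and -15.9 to -12.5 with 1 mouse left out. Against regions of 10000 bp or more, 29.1 points, it was 10.2 with equal numbers of peaks and 30.8 to 56.1 with 1 mouse left out. The excess of the left-out WT mouse over the KO mice, 32.0 points, was 15.4 with equal numbers of peaks and 23.8 to 40.3 with 1 KO mouse left out, and it has no value without a WT mouse. Peak lists that end at a fold of 5 do not show lower signal, so an absent peak is not an absent mark.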
